A study of Mus musculus with 2 samples.

Results

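The SLC25 genes encode the mitochondrial carrier proteins, and the array data were read for 35 of them, the uncoupling protein genes Ucp1 and Ucp3 included. Members were all genes whose platform symbol is Slc25a or Ucp followed by a number, taken from probe sets with exactly 1 gene symbol. The rule used names and no signal, but it was set with earlier results of these data known. The members came from 68 probe sets, out of 12393 genes and 20380 such probe sets in all. The RefSeq gene table holds 50 genes with such a name, and the other 15, among them Ucp2, Slc25a1, Slc25a12 and Slc25a16, were not analysed here.

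Carriers of this family sit, with few exceptions, in the inner mitochondrial membrane and exchange metabolites between the matrix and the cytosol. They supply ADP and phosphate to ATP synthase, bring in acylcarnitines for oxidation, and move aspartate, ornithine, citrate, cofactors and iron. In hepatocytes they link the mitochondrial and cytosolic steps of the urea cycle, gluconeogenesis, fatty acid synthesis and heme synthesis. The related uncoupling proteins include Ucp1, which lets protons leak back in brown fat.

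Liver RNA came from male apolipoprotein E-deficient mice on a C57BL/6J/OLA129 background, a genotype shared by both groups, so no mouse with intact apolipoprotein E was compared. The labels put both groups at 2 months of age. That is shorter than the 10 weeks of treatment, so the age at which liver was taken is not settled here. The control group drank 1% glycerol in water for 10 weeks, and the squalene group the same drink with squalene added at 1 g per kg per day; both ate chow. Each group is 1 pool of animals on 1 Affymetrix array, so there are no replicates, no test between the groups can be made, and each ratio below compares 2 pools of unstated size. The comparison addresses how squalene, an intermediate of cholesterol synthesis, alters liver transcripts in these mice.

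Values are MAS5 signals, 1 per probe set on a linear scale, with a median of 39.9 on the control array and 41.4 on the squalene array. Every log2 ratio is the squalene signal over the control signal, and a gene is called higher or lower when that ratio passes 0.5 in size. Each gene is read from its probe set of highest mean log2 signal. The number of arrays limits the precision, and the spread used below is how far probe sets of a single gene differ. Its SD was 2.01, 1.27, 0.456 and 0.203 in log2 ratio over 4 classes of rising signal, parted at signals of 10.0, 38.4 and 159. Those probe sets read the same pools, so this SD holds no variation between animals or pools. All 18 probe sets of hybridization spike-ins read lower on the squalene array (median log2 ratio -0.26). Scaling to them would add 0.26 to every ratio, moving the median of all genes from 0.01 to 0.27, and would turn 6 members from below to above 0. Hepatocyte markers were bright on both arrays: 5 genes, Alb, Ttr, Apoa1, Cps1 and Cyp2e1, summed to 81706 (control) and 74635 (squalene).

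As a family the carriers centred near 0. The median log2 ratio over all 35 members was 0.08, with quartiles of -0.25 and 0.38, beside a median of 0.01 and quartiles of -0.34 and 0.40 over all 12393 genes. Of the members, 8 were called higher and 7 lower. That is 22.9% and 20.0% of the family, beside 21.5% and 19.8% of all genes, so these shares lie near the background. Past 1.5 in size, the limit that the submitters state for their own screen, lay 3 members (8.57%), beside 15.2% of all genes.

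The signal of a probe set decided how much of this could be read. In 26 members both signals were at or above the array medians, in 8 both were below, and Slc25a36 fell below only with squalene. The same 26 members had a mean log2 signal at or above that of the median gene, a geometric mean signal of 52.7, and these are called brighter below. Of the 26 brighter members, 4 were called higher (15.4%) and 3 lower (11.5%), beside 8.2% and 6.84% of the 6197 brighter genes. None of the 26 passed 1.5, beside 0.21% of those genes. Their median was 0.08, and that of all brighter genes 0.01.

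**Figure D1:**
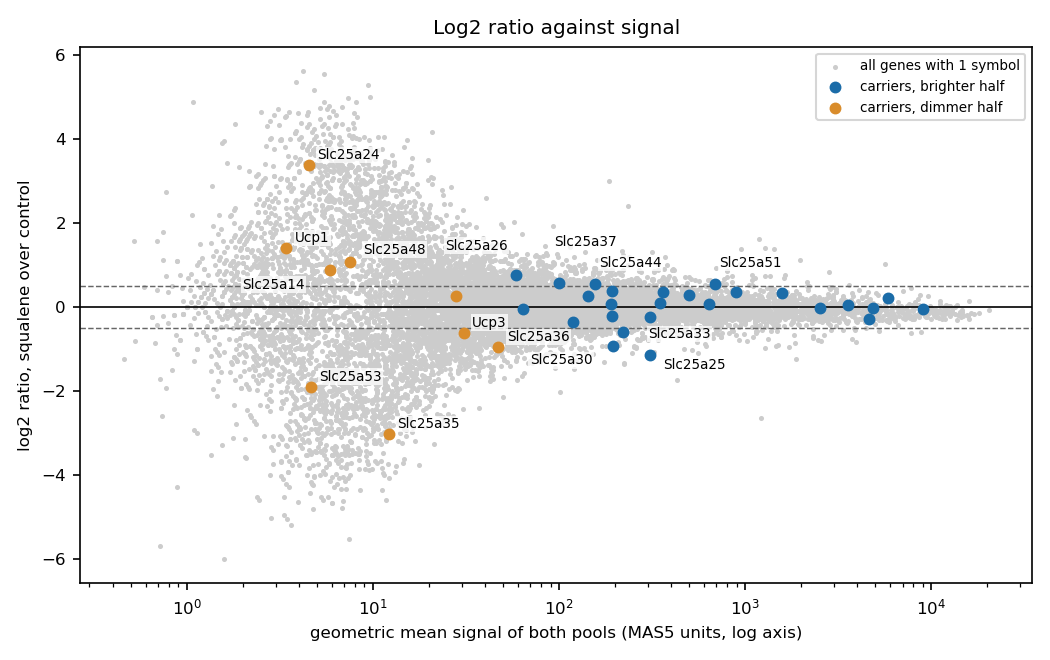
Log2 ratio of the squalene over the control signal (vertical axis) against the geometric mean signal of both pools (horizontal log axis) for all 12393 genes in grey and the 35 carriers in colour; dashed lines mark 0.5 in either direction. The carriers past 1.5 (Slc25a24, Slc25a35 and Slc25a53) lie at the dim end, where all genes scatter widely, and Slc25a25 and Slc25a30 lie below most genes of like signal.

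Among members not below both array medians, 4 were called lower. Slc25a25 (Entrez gene 227731), a calcium-regulated exchanger of ATP-Mg against phosphate, read 455.4 in the control pool and 208.9 with squalene, 2.18-fold lower (log2 ratio -1.12). It has a single probe set, and its ratio is 5.54 times the SD of 0.203 between probe sets in its signal class. That SD is not a spread between animals or pools, and the ratios of all genes in the class had an SD of 0.306. Of the 3655 genes in that class, 8 read as low or lower, Slc25a25 among them. Slc25a30 (Entrez gene 67554), a kidney-type relative of the uncoupling proteins, read 267.3 and 142.2, 1.88-fold lower (log2 ratio -0.91). A second probe set of Slc25a30 gave 170.6 and 86.9 (-0.97) and the third 122.8 and 100.8 (-0.28). Its remaining probe sets, both below the array medians, stood at 0.07 and 0.44. In the same class, 24 of 3655 genes read as low as Slc25a30 or lower.

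The other lower pair carries pyrimidine nucleotides, which mitochondria need for their own DNA and RNA. Slc25a33 (Entrez gene 70556) read 269.7 in the control pool against 180.9, 1.49-fold lower (log2 ratio -0.58) on 1 probe set. Slc25a36 (Entrez gene 192287) read 65.6 and 34.0, 1.93-fold lower (-0.95), with the squalene signal under its array median. Its other probe set, at 6.9 and 1.9, gave -1.86. So the readings of both pyrimidine carriers were below 0 on all 3 of their probe sets, though only those of Slc25a33 were well above the array medians. With the spike-in scaling Slc25a33 stood at -0.32, within the band.

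Upstream sequence is shown for these 4 genes because they are the 3 brighter carriers called lower and Slc25a36, the partner of Slc25a33, so that the starts of genes that read lower can be set side by side. Each run is the 250 bases before a RefSeq transcript start (build GRCm38.p6), written 5′ to 3′ on the gene's strand, which is the minus strand in each case. They lie at chr2:32424067-32424316 for Slc25a25, chr9:97111042-97111291 for Slc25a36, chr4:149774268-149774517 for Slc25a33 and chr14:75787038-75787287 for Slc25a30. Capitals mark matches, on either strand, to the motifs searched: the E-box CACGTG, the cyclic AMP response element (CRE) TGACGTCA and its shorter form TGACG, the D-box TTATGTAA, the CCAAT box CCAAT, the GC box GGGCGG, the estrogen-related receptor site AAGGTCA and the ETS site CCGGAAG. The full CRE holds the shorter form on each strand, so a full match counts as 2 short ones.
Slc25a25: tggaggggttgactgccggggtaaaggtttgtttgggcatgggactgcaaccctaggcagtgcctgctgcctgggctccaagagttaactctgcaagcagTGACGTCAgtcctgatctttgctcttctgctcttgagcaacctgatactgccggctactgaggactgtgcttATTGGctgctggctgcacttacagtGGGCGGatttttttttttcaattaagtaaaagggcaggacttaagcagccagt
Slc25a36: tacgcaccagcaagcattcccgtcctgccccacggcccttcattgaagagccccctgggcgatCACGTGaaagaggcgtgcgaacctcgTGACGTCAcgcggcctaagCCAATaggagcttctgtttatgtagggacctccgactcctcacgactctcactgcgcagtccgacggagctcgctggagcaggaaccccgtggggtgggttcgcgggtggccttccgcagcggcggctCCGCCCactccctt
Slc25a33: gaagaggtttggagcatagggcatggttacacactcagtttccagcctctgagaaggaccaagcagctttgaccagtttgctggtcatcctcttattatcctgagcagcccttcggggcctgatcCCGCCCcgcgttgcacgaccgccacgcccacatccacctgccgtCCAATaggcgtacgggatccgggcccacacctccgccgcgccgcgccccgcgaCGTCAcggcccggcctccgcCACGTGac
Slc25a30: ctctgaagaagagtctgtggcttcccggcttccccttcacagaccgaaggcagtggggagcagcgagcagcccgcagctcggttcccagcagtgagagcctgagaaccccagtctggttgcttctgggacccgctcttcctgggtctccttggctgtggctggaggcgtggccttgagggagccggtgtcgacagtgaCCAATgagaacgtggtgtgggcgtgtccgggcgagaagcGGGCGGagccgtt

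The 8-letter CRE stood in the windows of Slc25a25 and Slc25a36, and in no other of the 37 windows of the 28 members that the RefSeq promoter table holds. Of all 32851 windows of that length in the table, 1.55% hold it. Slc25a25 has 3 transcript starts in the table, and the match lies before the one farthest downstream, which is why that start is shown; the windows of the other starts hold CCAAT boxes, and the first also a GC box. The array cannot tell which start was used. Slc25a33 and Slc25a36 each had 1 E-box, a motif in 6.02% of all windows. Windows of Slc25a13, Slc25a14 and Slc25a15, none of them called lower, held an E-box too. All 4 printed windows held a CCAAT box (33.8% of all windows) and a GC box (32.7%). Both of these boxes also stood in windows of carriers not called lower, among them Slc25a11, Slc25a23 and Slc25a28. None of these motifs was therefore particular to the lower carriers. The short CRE form is in 17.8% of all windows, the D-box in 0.819%, the estrogen-related receptor site in 4.08% and the ETS site in 6.91%, and none of the last 3 was in the printed windows. These are matches of letters, not measured binding.

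**Figure D2:**
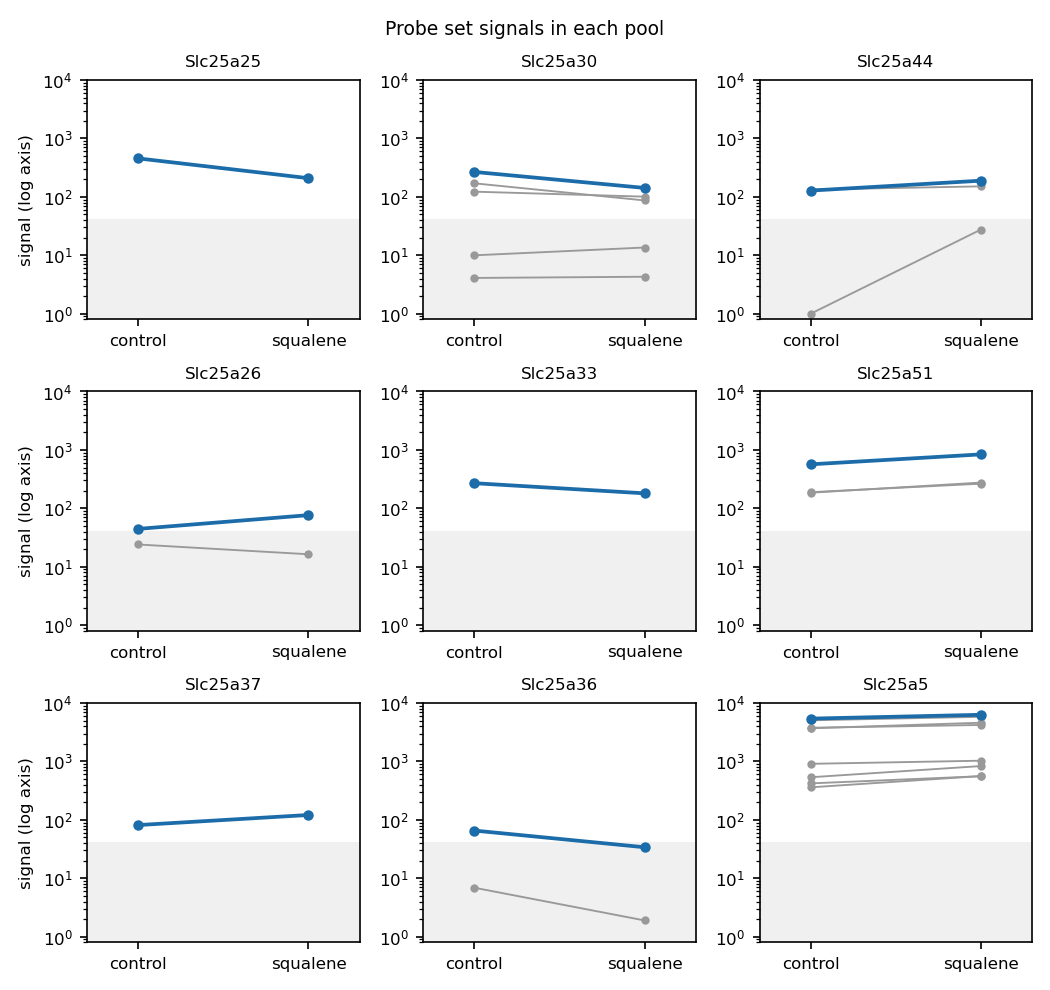
Signal of every probe set in the control and squalene pools (log axis) for the 7 brighter carriers called higher or lower, with Slc25a36 and Slc25a5; the blue line is the probe set used, grey lines are the others, and the shaded band lies below the control array's median of 39.9. The 3 probe sets of Slc25a30 above the band slope down, all 3 of Slc25a51 and all 8 of Slc25a5 slope up, and the probe sets of Slc25a26 cross in direction.

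Markers of macrophages and Kupffer cells, the resident liver macrophages, were below 0 as well. All 10 of 10 listed markers read below 0 (median -0.70), beside 6017 of all 12393 genes. Of the 10, 7 were called lower, beside 19.8% of all genes. Their summed signal was 5583.5 in the control pool and 3598.2 with squalene. Hepatocyte markers read below 0 in 4 of 5 genes (median -0.19) and endothelial markers in 4 of 6 (median -0.09). The part of any of these cell types in the lower carriers was not tested. In bulk liver, fewer cells of a type and less RNA per cell cannot be told apart. All 8 lymphocyte markers read below the array median in both pools.

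Among the higher carriers, Slc25a51 had the most even support. Slc25a51 (Entrez gene 230125), which brings NAD into mitochondria, read 567.3 in the control pool and 839.4 with squalene, 1.48-fold higher (log2 ratio 0.57). Its other probe sets read 185.5 against 276.3 (0.57) and 189.2 against 264.8 (0.48). All 3 probe sets thus differed by nearly the same factor. In the brightest signal class, 126 of 3655 genes read as high or higher.

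The other 3 brighter carriers called higher were dimmer or less even. Slc25a44 (Entrez gene 229517), a carrier of branched-chain amino acids, read 128.1 and 189.3 (log2 ratio 0.56), and 133.3 and 151.3 (0.18) on its next probe set. Its last probe set, at 1.0 and 27.6, was below both array medians. Slc25a37 (Entrez gene 67712), or mitoferrin 1, which imports iron, read 81.5 and 121.3 (0.57) on 1 probe set. Slc25a26 (Entrez gene 67582), which imports the methyl donor S-adenosylmethionine, read 44.6 and 76.6 (0.78), whereas its second probe set, below both array medians, read 24.1 and 16.4 (-0.56). For these 3, the SD between probe sets of their signal class was 0.456, so their ratios were 1.24, 1.26 and 1.71 times that spread.

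**Figure D3:**
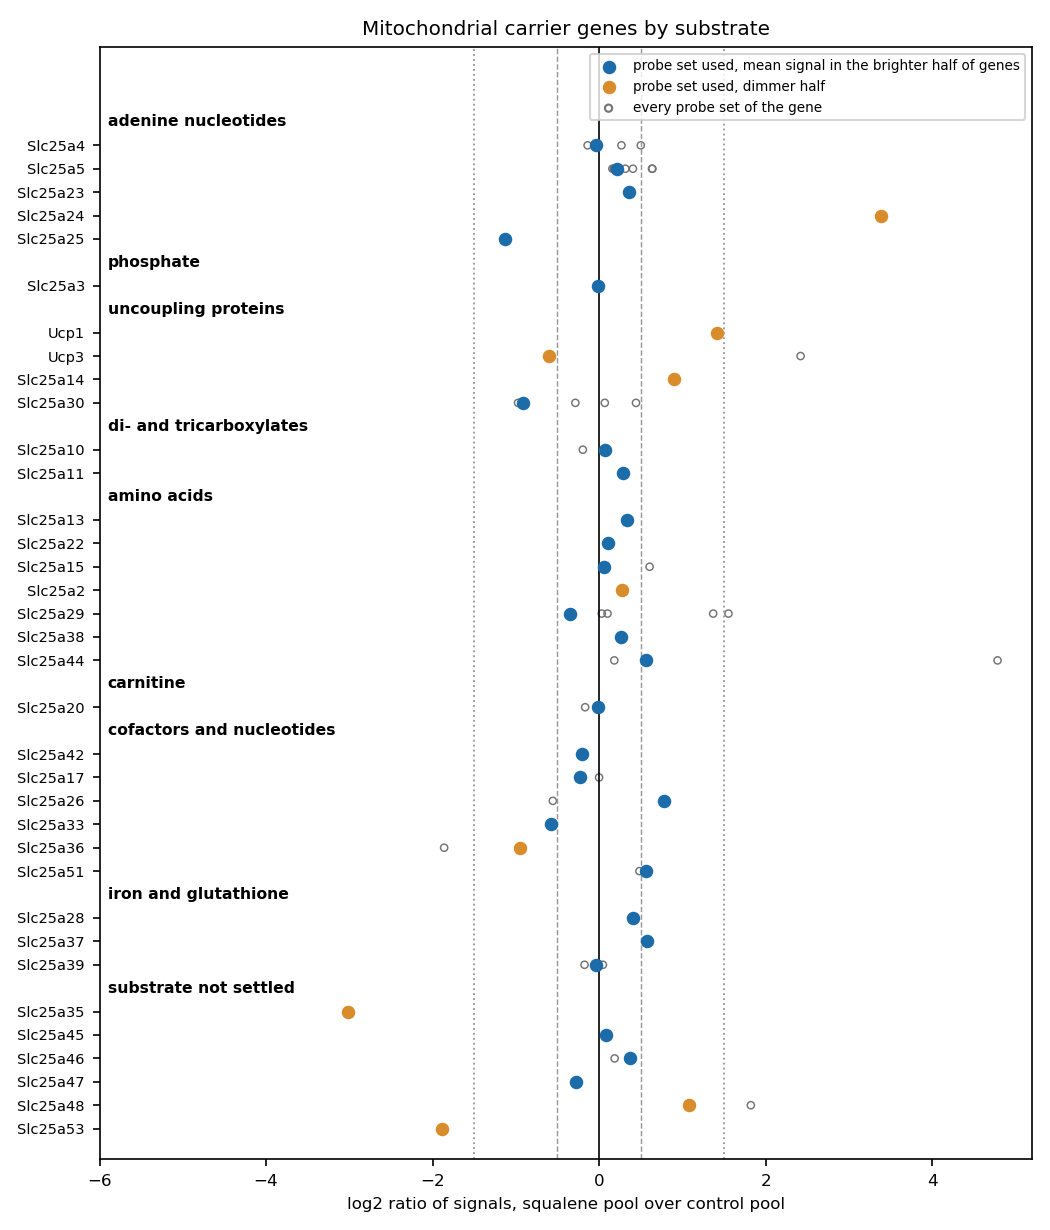
Log2 ratio of each of the 35 carriers (horizontal axis), grouped by transported substrate; filled points are the probe set used, blue for brighter and orange for dimmer members, open circles are all probe sets of the gene, and dashed and dotted lines mark 0.5 and 1.5. Filled blue points outside the dashed lines are Slc25a25, Slc25a30 and Slc25a33 on the lower side and Slc25a26, Slc25a37, Slc25a44 and Slc25a51 on the higher side.

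By substrate, the adenine nucleotide carriers divided. Slc25a5, the widely expressed ADP/ATP translocase, read 5405.0 in the control pool and 6283.1 with squalene (log2 ratio 0.22). All 8 of its probe sets were above 0, from 0.16 to 0.64. Of these, 6 carry the suffix that Affymetrix gives to probes shared with other sequences, so near-identical copies may add to their signal; the single plain probe set read 421.2 and 558.5 (0.41). The highest ratio, 0.64, was that of 2 of the shared-probe sets, at 360.6 against 562.2 and at 536.2 against 833.1. Slc25a4, the muscle and heart translocase, lay only just above the array medians at 64.4 and 62.9 (-0.03). Its other probe sets above the medians read 0.27 and 0.50, opposite in sign. The dimmest gave -0.14 from signals of 1.1 and 1.0. All 5 skeletal muscle markers and all 3 white adipocyte markers measured were below the array medians in both pools.

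The calcium-regulated ATP-Mg carriers went apart. Slc25a23 read 317.9 and 407.9 (0.36), opposite in sign to its relative Slc25a25 at -1.12. Slc25a24 had a ratio of 3.38, but from signals of 1.4 and 14.6, both below the array medians. The phosphate carrier Slc25a3, which also takes copper into the matrix and works beside the translocases, read 4884.9 and 4850.9 (-0.01). ATP synthase, which uses what these carriers deliver, had 15 subunit genes measured, with 0 called higher, 0 called lower and a median of -0.13. Atp5e (-0.36), Atp5k (-0.35) and Atp5d (0.30) had the largest ratios in size. Most genes of the ATP synthase list and of the pathway lists below were brighter. Of all brighter genes 8.2% were called higher and 6.84% lower, so a short list with few calls lies near that background.

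The uncoupling group held 1 brighter member, Slc25a30, described above. Ucp1 read 2.1 and 5.6, Slc25a14 read 4.3 and 8.0, and Ucp3 read 37.9 and 24.9, all below the array medians. The second probe set of Ucp3 gave 6.5 and 34.8, opposite in direction. Of 6 brown fat markers, Cidea (-1.69), Cox8b (0.79), Cox7a1 (1.28) and Dio2 (0.14) were below both medians, with no common direction. The other two, which liver expresses as well, were bright: Elovl3, a fatty acid elongase, read 2869.0 and 1215.5 (-1.24), and Ppargc1a is given below.

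Carriers of the shuttles and of citrate cycle acids read slightly above 0. Slc25a11, which exchanges oxoglutarate for malate, read 449.6 and 550.9 (0.29). Slc25a13, or citrin, which exchanges aspartate for glutamate and is the main such carrier of liver, read 1412.3 and 1777.7 (0.33). They form the membrane part of the malate-aspartate shuttle, which moves reducing equivalents. Of 6 measured enzymes of that and the glycerol phosphate shuttle, 0 were called higher and 0 lower, with a median of -0.09. Got1, the cytosolic aspartate aminotransferase, read 0.41, and Mdh1 (-0.32) and Gpd1 (-0.43) read below 0. The probe sets of Mdh1 ran from -0.45 to 1.70. Slc25a10, the dicarboxylate carrier, read 625.6 and 656.9 (0.07), and -0.19 on its other bright probe set. Enzymes on either side of citrate export, 6 measured, had a median of 0.03 with none past 0.5; Me1 (0.32), Pcx (-0.14) and Acaca (0.14) had the largest ratios, that of Acaca from signals below the array medians.

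Of the 7 amino acid carriers measured, 6 were above 0, with a median of 0.27. Slc25a44 alone was called. Slc25a15, the ornithine carrier of the urea cycle, read 3484.9 and 3624.0 (0.06), and its other probe set 173.5 and 264.3 (0.61). Slc25a22, a glutamate carrier, stood at 0.11, and Slc25a38, which supplies glycine for heme synthesis, at 0.27. Slc25a2, a second ornithine carrier, was below the array medians at 25.5 and 30.8. Slc25a29, a basic amino acid carrier, was the member below 0, at 133.4 and 105.0 (-0.35), but another probe set above the medians read 0.03 and its 3 dimmer ones 0.10 to 1.55. Of 8 urea cycle and ornithine genes measured, 0 were called higher and 1 lower, with a median of 0.05. The lower gene was Arg2 (-0.64), at 26.0 and 16.7 and so below the array medians. Asl, the argininosuccinate lyase, read 0.38 and Otc, which makes citrulline, -0.12, with another Otc probe set at 0.65.

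The carnitine carrier Slc25a20, through which acylcarnitines reach the matrix, read 2553.5 and 2522.2 (-0.02), and -0.17 on its second probe set. It lay with its pathway. Of 9 measured genes of carnitine transfer and mitochondrial oxidation, 0 were called higher and 1 lower, with a median of -0.09. The lower gene was Crot, the peroxisomal carnitine octanoyltransferase, at 4889.0 and 2894.2 (-0.76). Crat (0.21) and Cpt1a (0.17) were the next largest in size, though other probe sets reached 0.78 for Crat and 0.79 for Cpt1a.

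Among carriers of cofactors, the readings differed in direction, with too few genes per substrate to tell whether they divide by substrate. Both carriers linked to coenzyme A were below 0 within the band, Slc25a42 at 208.0 and 180.2 (-0.21) and the peroxisomal Slc25a17 at 334.0 and 285.2 (-0.23), and the spike-in scaling would bring them to 0.05 and 0.03. The pyrimidine carriers were lower and those of NAD and S-adenosylmethionine higher, as given above. Over all 6 members the median was -0.22. One-carbon and methyl donor enzymes, 6 measured, had a median of 0.02, with 1 called higher and 0 lower. The higher gene was Mthfd2, from signals of 2.1 and 17.2. Gnmt (-0.09) and Shmt1 (0.05, with another probe set at 0.52) followed.

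The iron carriers both read above 0. Slc25a28, or mitoferrin 2, read 166.4 and 220.0 (0.40), beside 0.57 for Slc25a37. Slc25a39, which brings glutathione into mitochondria, read 9097.7 and 8902.1 (-0.03), and its other probe sets -0.17 and 0.05. Of 8 measured heme synthesis enzymes, which use mitochondrial iron and glycine, 0 were called higher and 1 lower, with a median of -0.15. The lower gene was Uros (255.4 and 167.2, -0.61); Alas2, the erythroid first enzyme, read -0.47 and Alas1, its hepatic counterpart, 0.37. Among erythroid markers Hba-a1 and Epb42 were below the array medians, and Alas2 read 102.6 and 73.9.

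Of the members without a settled substrate, 3 were bright. Slc25a47, a liver-enriched carrier, read 5107.1 and 4222.8 (-0.27) on 1 probe set. It neighbours Slc25a29 on chromosome 12, the only adjacent family pair among protein-coding genes in the RefSeq table of which both were measured here. Slc25a29 read -0.35 on the probe set used, but its 4 other probe sets were above 0. Slc25a46, a protein of the outer membrane that acts in mitochondrial shape, read 785.5 and 1013.0 (0.37), and 0.19 on its second probe set. Slc25a45 read 184.7 and 195.5 (0.08). The other 3 were dim: Slc25a35 read 34.7 and 4.3, Slc25a48 read 5.2 and 11.0, and Slc25a53 read 8.9 and 2.4.

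The ratios past 1.5 all belonged to such dim members. Slc25a24 (3.38), Slc25a35 (-3.01) and Slc25a53 (-1.89) each rest on 1 probe set with both signals below the array medians. In the dimmest 2 signal classes, where they lie, 80.3% and 64.0% of genes passed 0.5 and the SD between probe sets was 2.01 and 1.27. In the brightest class 8.62% did. With signals floored at the array medians, these 3 read 0.05 each.

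Mitochondrial transport proteins outside the SLC25 symbols read close to 0. Of 9 measured, among them the pyruvate carrier subunit Mpc1 (0.04) and the outer membrane channels Vdac1 (0.01), Vdac2 (0.16) and Vdac3 (-0.05), 0 were called higher and 1 lower, with a median of 0.01. Another probe set of Vdac1 read 1.16. The lower gene was Sfxn3 (-3.92), from a squalene signal of 3.4; Mtch1 read -0.46 and Sfxn1 0.24. Of 8 regulators of mitochondrial genes, 3 were called higher and 0 lower, with a median of 0.36, beside 21.5% of all genes called higher. Of the 7 brighter regulators, 2 were called higher, beside 8.2% of all brighter genes. In the signal class that holds Ppargc1a and Pprc1, 27.1% of genes passed 0.5 in either direction. The coactivator Ppargc1a read 74.8 and 221.3 (1.56, the highest of its 5 probe sets, which began at 0.23). Nrf1, a factor for nuclear genes of mitochondria, read 27.0 and 56.8 (1.07). Its control signal was below the array median, and another of its probe sets gave -0.90. Pprc1 read 59.6 and 99.1 (0.73). Whether these differences bear on the carriers was not tested.

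**Figure D4:**
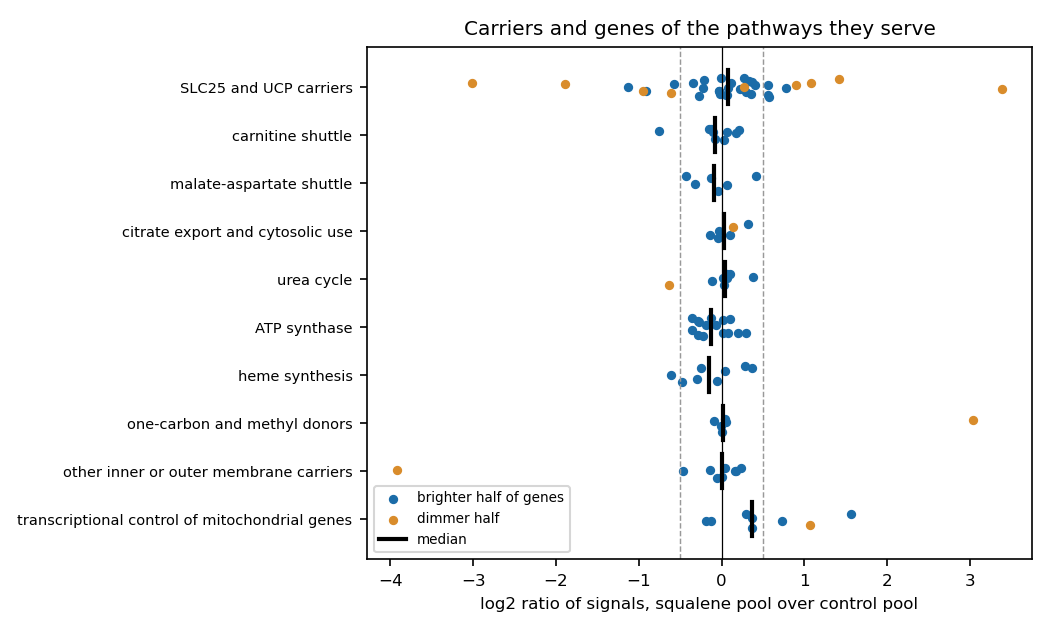
Log2 ratio of the 35 carriers and of the genes in 9 lists of pathways they serve (horizontal axis), blue for brighter and orange for dimmer genes, with a black bar at each list's median and dashed lines at 0.5. List medians run from -0.15 for heme synthesis to 0.36 for transcriptional control, with the carriers at 0.08.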

How the data were processed

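The authors deposited 1 linear intensity per probe set, computed with MAS5 per the submitters' processing notes. Both arrays have a 2%-trimmed mean of 200.1, seen in the values, so they appear scaled to one target; the software version and scaling are given in none of the sources used here. Of 22690 probe sets, 64 array controls were left out. The rest had 1 gene symbol (20380), several (691, unnamed here) or none (1555) in the platform annotation. Log2 ratios used no pseudocount and no filter.

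With 1 array per group, no p-values were computed. Steps were tested on simulated signals, with noise set to the spread between probe sets and known shifts in brighter genes only. Such signals hold no variation between animals or pools, so they checked the computation and not the ratios given here. Groups were taken from the sample titles. The members and lists were chosen with earlier results of these data known. Every member is named; from each pathway list the 3 genes with the largest ratios, and those called, are given, and other named genes were chosen after their values were seen. Alternatives covered the probe set kept, scaling, pseudocount, floor, filter and limits. The promoters shown, and the motifs, were also chosen after the values were seen. The signature motif and identity of the carrier proteins, planned as a description, were not analysed here. Python 3.11.15, numpy 2.4.6, pandas 2.3.3, scipy 1.17.1, statsmodels 0.14.6 and matplotlib 3.10.9 were used.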

Additional observations from a re-analysis of the deposited data

How the results depend on the processing

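With no replicates, a median or ratio was counted as moved when it shifted by more than the SD between probe sets of its signal class. For a median that SD was divided by the root of the number of genes. For the pathway lists the SD of the brightest class, 0.203, was used throughout, also for dimmer genes, whose SD is larger. The family median of 0.08 moved to 0.27 with the mean over a gene's probe sets and 0.34 with spike-in scaling. Spike-in scaling, which adds 0.26 to all genes, also took the medians of the amino acid, di- and tricarboxylate, iron and glutathione, and cofactor carriers to 0.53, 0.44, 0.66 and 0.041, and the higher calls from 8 to 15 (all genes from 21.5% to 33.3%). The cofactor median was -0.38 with the probe set of smallest ratio, and the uncoupling median -0.91 over brighter genes, which leaves 1 member. Higher calls were 5 with the smallest ratio (19% of all genes), 4 with floored signals (4.91%), 4 over brighter genes (8.2%) and 5 at a limit of 0.75 (15.5%). Lower calls fell from 7 (19.8% of all genes) to 4 with floored signals (4.2%) and 3 over brighter genes (6.84%). Members past 1.5 fell from 3 (15.2% of all genes) to 0 with floored signals (0.0807%) and 0 over brighter genes (0.21%). At a limit of 1.0 they were 6, beside 23.1% of all genes. With the mean over probe sets, list medians were -0.0079 for carnitine transfer, 0.053 for the shuttles, 0.23 for one-carbon enzymes and 0.27 for transcriptional control.

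Called members changed sign as follows: Slc25a26 to -0.56 and Slc25a30 to 0.069 with the smallest ratio, Slc25a35, Slc25a53 and Ucp3 to 0.051 with floored signals, and Ucp3 to 0.91 with the mean over probe sets. The floor raises dim signals to the array medians, which sets such ratios to that of the medians; the other changes follow from which probe sets are kept. Slc25a25 stayed below -0.5 in all 10 alternatives (-1.17 to -0.87). Slc25a37 stayed above 0.5 in all 9 that gave it a value, and Slc25a51 in 9 of 10, the lowest being 0.48. Slc25a25 and Slc25a37 have 1 probe set each, above the array medians in both pools. The choice of probe set, the floor and the filter could therefore not change their ratios, and only scaling and the pseudocount could. No alternative can stand in for a second pool, and for the 9 dimmer members the signal itself is the limit.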
